A study of Homo sapiens with 4 samples.

Results

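The clustered replication-dependent histone genes are the genes of the histone clusters on chromosomes 6 and 1, from which dividing cells make most of their new histones. They were chosen by gene name alone, and 64 of the 64253 gene rows of the count table carried such a name. Of these, 6 encode the linker histone H1, 16 encode H2A, 17 H2B, 11 H3 and 14 H4. Chromosome 6 holds 53 of the genes and chromosome 1 holds 11. RNA was sequenced from A549 cells, an established human lung adenocarcinoma line. The cells had been transfected with a pENTER plasmid carrying NFATc2 (2 libraries) or NFATc2M (2 libraries). NFATc2 is a transcription factor that moves to the nucleus after calcium signalling, and NFATc2M is the same protein with a deletion in its DNA binding domain, used as the loss-of-function reference. All 4 samples were cultured in OPNc-CM, a medium conditioned by HEK-293 T cells that express osteopontin isoform c. Cells without a plasmid or without OPNc-CM were not compared here, so each difference below is between the intact and the mutant factor, both overexpressed in that medium. Nothing in the labels states that the 2 libraries of a group came from separate cultures, so the spread behind each p-value may be technical.

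Histone mRNAs of this class are made in S phase, when new DNA has to be packed into nucleosomes. NPAT drives their transcription at the clusters. They are the usual example of animal mRNAs without a poly(A) tail: the transcript is cut a few bases after a short stem-loop, which SLBP, the stem-loop binding protein, recognises. A share of transcripts from some of these genes can run past the stem-loop and receive a poly(A) tail at a site downstream. The libraries were made with mRNA capture beads, which take RNA by its poly(A) tail. The counts therefore describe the histone RNA that the beads retained, and the level of histone RNA without a tail was not measured.

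The stem-loops show what the genes share at the RNA level and are given here for the genes whose values follow. Each was located in the GRCh38 (hg38) genome within 150 bases after the stop codon annotated by GENCODE 44, on the strand of the gene only. The search took GGNNNNTTNNNNNNCC in which the last 6 bases are the reverse complement of the first 6, with at most 1 mismatch. Capitals mark the 16 bases of the stem-loop, 6 for each arm and 4 for the loop, and 5 flanking bases stand in lower case on each side.
H2BC12, chr6:27146361-27146386, minus strand: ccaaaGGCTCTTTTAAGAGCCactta
H2BC5, chr6:26158582-26158607, plus strand: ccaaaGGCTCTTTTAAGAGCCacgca
H2BC21, chr1:149886183-149886208, minus strand: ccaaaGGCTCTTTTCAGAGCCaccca
H2AC6, chr6:26124664-26124689, plus strand: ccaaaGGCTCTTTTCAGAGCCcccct
H2AC11, chr6:27133510-27133535, plus strand: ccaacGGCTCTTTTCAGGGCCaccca
H2AC20, chr1:149887386-149887411, plus strand: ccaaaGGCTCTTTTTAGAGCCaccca
H4C9, chr6:27139649-27139674, plus strand: aaaaaGGCCCTTTTTAGGGCCcctaa
H4C8, chr6:26285126-26285151, minus strand: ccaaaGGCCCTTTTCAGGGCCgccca
H1-2, chr6:26055739-26055764, minus strand: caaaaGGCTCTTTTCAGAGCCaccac

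A stem-loop of this form followed the stop codon in 59 of the 62 histone genes that the annotation holds (95.2%), against 0.427% of 19888 other protein-coding genes. It began 23 to 63 bases after the stop codon (median 36). The 59 stem-loops fell into 7 sequences. The commonest, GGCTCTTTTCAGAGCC, was found in 34 genes of H1, H2A, H2B and H3 and in no H4 gene. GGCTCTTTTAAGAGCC was found in 9 genes of the same histone types, among them H2BC12 and H2BC5. The H4 genes had stems of their own, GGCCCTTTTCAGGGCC in 9 genes and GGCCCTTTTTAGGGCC in 4, the last including H4C9. The other 3 sequences were each found in a single H2A gene, and those of H2AC11 and H2AC15 carried 1 mismatch in the stem. The genes without a match were H2BC10, H3C6 and H4C13. H2AC18 and H2AC19, on chromosome 1, were not matched by their identifiers to the annotation, so their position, length and stem-loop are not given.

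The annotated gene end lay close to the stem-loop in most of these genes but not in all. In 46 genes it was at most 20 bases away, and these genes are said here to end at the stem-loop. In 13 genes the annotation ran on, in H2AC6 for 14432 bases, in H2BC5 for 12747 and in H2BC21 for 1729, introns included. Of these 13 genes, 9 held AATAAA, the main poly(A) signal, in the last 50 bases on the gene's strand, against 2 of the 46 genes that end at the stem-loop and 58.9% of 20046 protein-coding genes. The limit of 20 bases was set after the annotation had been seen.

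Gene counts totalled 21830690 and 23527259 for NFATc2, against 21011786 and 21372469 for NFATc2M. HTSeq's 5 summary categories, left out here, held 56.4% to 57.4% of each library's total. Reads that aligned in more than 1 place were among them and made up 2.75% to 2.86% of the total, and how many of these came from histone genes was not tested. Such reads are missing from the counts of histone genes that share sequence with another gene. NFATC2, the gene on both plasmids, had 2211 and 2521 CPM with NFATc2, and 2581 and 2435 CPM with NFATc2M (log2 fold change -0.08, adjusted p = 0.67 from edgeR). CPM is the usual counts-per-million measure, here with TMM-scaled library sizes. Reads of the intact and of the mutant transcript are counted alike, so NFATC2 does not check the labels. No library had a read of CDKN2A or CDKN2B, genes that A549 cells have lost, while the other 6 markers listed for the line were tested and 0 passed the threshold. Mean levels of these 6 ran from 3873 CPM with NFATc2 and 3440 CPM with NFATc2M in ALDH1A1 down to 2.62 and 2.52 CPM in EPCAM. With the GC content and length offset described below, KRT18 passed as higher (0.43, adjusted p = 0.0029) and AKR1C1 as lower (-0.28, adjusted p = 0.043) with NFATc2, both from edgeR. All 8 markers listed for HEK-293 T cells, the source of the medium, had counts (5418 and 6545 in sum with NFATc2, 5616 and 5610 with NFATc2M). PRAME with 13703 counts over the 4 libraries and INA with 6222 held most of these, while NEFM had 53 and CDX2 23. Of the 8 markers, 7 were tested and 0 passed. Whether these reads came from A549 or from HEK-293 T cells was not tested, and neither was any part of HEK-293 T RNA in the histone counts.

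Few reads came from the clustered histone genes. Summed over the 64 genes there were 2114 and 2147 counts with NFATc2, and 2248 and 2215 with NFATc2M. These were 0.00968% and 0.00913% of the gene counts with NFATc2, and 0.0107% and 0.0104% with NFATc2M. Counts were listed for 44 and 39 of the genes with NFATc2, and for 39 and 43 with NFATc2M. In 11 genes, H1-1, H1-5, H2AC1, H2AC8, H2AC17, H2BC1, H2BC14, H3C11, H4C1, H4C6 and H4C7, there was no count in any library. A count of 0 in a library allows up to 0.139 and 0.129 CPM with NFATc2 and up to 0.142 and 0.139 CPM with NFATc2M (3 counts, counting error only). A further limit is that 40 of the 64 genes had at most 20 counts over the 4 libraries together. The filter on low counts was passed by 21 genes, and the 43 that did not pass it held 303 of the 8724 counts.

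The counts were concentrated in a few genes. H2BC12 with 2800 counts, H2AC6 with 1710, H4C9 with 912 and H2BC5 with 616 held 69.2% of all counts of the 64 genes. By type, H2B genes held 50.5%, H2A genes 25.5%, H4 genes 13.7%, H1 genes 7.11% and H3 genes 3.23%. Per length, the order of the mean levels over the 4 libraries was H2BC12 (64.6 CPM per kb of exon), H4C9 (26.2), H2AC6 (11.7), H1-2 (8.93), H2BC5 (8.20) and H2AC11 (4.06). In the NFATc2 libraries these levels were 64.3 ± 2.16, 26.6 ± 0.724, 11.3 ± 0.0163, 8.85 ± 1.27, 6.83 ± 0.454 and 3.67 ± 1.98 CPM per kb (SD, n = 2). In the NFATc2M libraries they were 65.0 ± 7.12, 25.8 ± 2.58, 12.1 ± 1.21, 9.01 ± 0.579, 9.57 ± 1.57 and 4.46 ± 0.206 CPM per kb (SD, n = 2). The mean level of H1-2 was above that of its neighbour H2BC5 in the NFATc2 libraries and below it in the NFATc2M libraries. An SD of 2 libraries may understate the spread, and this order was not tested. The same 6 genes include both kinds of annotated end: H2BC12, H4C9, H1-2 and H2AC11 end at the stem-loop, and H2AC6 and H2BC5 extend past it.

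**Figure D1:**
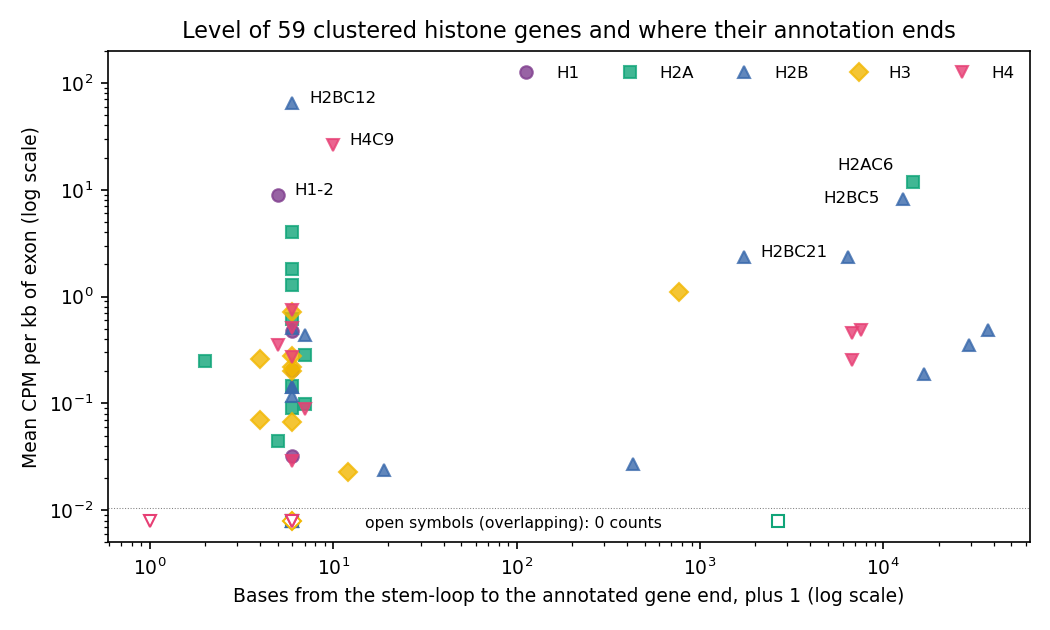
Mean CPM per kb of exon over the 4 libraries (log scale) against the number of bases from the stem-loop to the annotated gene end plus 1 (log scale) for the 59 genes with a stem-loop, with a symbol for each histone type and open, overlapping symbols for genes with 0 counts. The highest levels, 64.6 CPM per kb for H2BC12 and 26.2 for H4C9, belong to genes that end at the stem-loop, and most genes of that kind lie below 1 CPM per kb.

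The comparison of NFATc2 with NFATc2M asked whether an intact DNA binding domain went with other levels of these transcripts. None of the 21 tested histone genes passed the threshold (edgeR's quasi-likelihood test, adjusted p of at most 0.05 over all 17459 genes and an absolute log2 fold change of at least 0.26), while 8.64% of all genes tested did, 4.90% higher and 3.73% lower with NFATc2. In bulk RNA, a change in the share of cells in S phase and a change in histone RNA per cell cannot be told apart. The count was also 0 with DESeq2, which gave an adjusted p for 3 of the genes only, and 0 with limma voom, where the smallest adjusted p was 0.063 for H1-4. At an unadjusted edgeR p under 0.05 there were 4 of the 21 genes, against 23.3% of all genes. Log2 fold changes of NFATc2 over NFATc2M were positive in 5 genes and negative in 16, with a median of -0.27 against 0.00 over all genes tested. With each library's GC content and length trend taken out as an offset, which 19 of these genes could enter, 8 were positive and 11 negative, and the median was -0.12 against 0.03 over all genes. Both libraries of one group stood above both of the other in 8 of the 21 genes (38.1%), against 53.1% of all genes tested. In 7 of the 8 the NFATc2 libraries were the lower ones (33.3% of the 21, against 26.0% of all genes), and in H1-4 they were the higher (4.76%, against 27.2%). H2AC13, among the 7, and H1-4 passed the filter only through the group in which they were high.

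The precision differed from that of other genes. The median standard error of the log2 fold change was 0.54 over the 21 histone genes and 0.18 over all genes tested. Of the 21, 14 had a mean count below 50, and among all genes in that range 1.33% passed the threshold. At a mean count of 50 to 200, where 4 of the histone genes lay, 3.89% passed, and at 200 to 1000, where the other 3 lay, 10.3% passed.

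**Figure D2:**
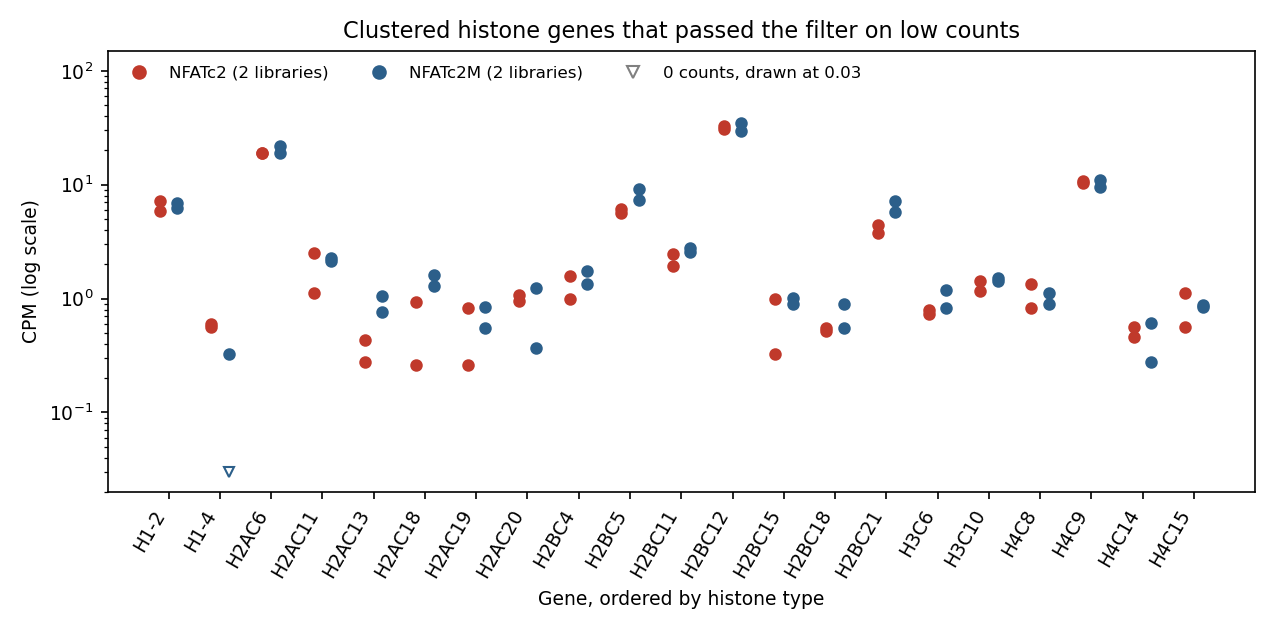
CPM (log scale) of the 21 tested histone genes, ordered by type, with a point for each NFATc2 library on the left and each NFATc2M library on the right of a gene's place. The groups lie close together in H2BC12, H2AC6, H4C9 and H1-2, and points stand apart in H2BC5, H2BC21, H2AC13 and H2AC18, where both NFATc2 libraries are the lower ones. H2AC13 passed the filter through the NFATc2M libraries alone.

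H2B genes gave the most counts. H2B pairs with H2A in the dimers that flank the inner tetramer of the nucleosome. The summed level of the 17 genes was 48.4 and 46.2 CPM with NFATc2, and 54.4 and 52.4 CPM with NFATc2M, so the groups did not overlap, and the ratio of their means was 0.885. All 7 tested H2B genes had a negative log2 fold change (median -0.43), and 0 of them passed the threshold. The sign of H2BC12 turned under the offset. H2BC12 (ENSG00000197903, chromosome 6, 27146361 to 27146855, minus strand) had 32.6 and 31.1 CPM with NFATc2, and 34.6 and 29.7 CPM with NFATc2M. The NFATc2 values lay inside the range of the NFATc2M values. Its log2 fold change was -0.02 (SE 0.14, 95% interval -0.30 to 0.27, adjusted p = 0.97 from edgeR), and it was 0.26 with the GC content and length offset. Of the 50-base stretches in its exon, 57.2% also occur in another histone gene, mostly in H2BC12L. Reads that aligned to both genes are not in its count.

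H2BC5 (ENSG00000158373, chromosome 6, 26158122 to 26171349, plus strand) had 6.15 and 5.60 CPM with NFATc2, and 7.28 and 9.19 CPM with NFATc2M. Both NFATc2 libraries were lower than both NFATc2M libraries. The log2 fold change was -0.49 (SE 0.23, 95% interval -0.95 to -0.03), with an unadjusted edgeR p of 0.039 and an adjusted p of 0.19. H2BC21 (ENSG00000184678, chromosome 1, 149884459 to 149886682, minus strand) had 4.40 and 3.79 CPM with NFATc2, and 5.72 and 7.21 CPM with NFATc2M, again without overlap. Its log2 fold change was -0.66 (SE 0.26, 95% interval -1.18 to -0.14), with an adjusted p of 0.099 from edgeR, the smallest among the 21 genes, and it did not pass. With the GC content and length offset the values of these genes were -0.46 and -0.63. Both genes extend past the stem-loop and hold AATAAA near the annotated end.

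The other tested H2B genes had fewer counts. H2BC11 had 1.94 and 2.46 CPM with NFATc2, and 2.79 and 2.59 CPM with NFATc2M, a log2 fold change of -0.29 (SE 0.36). H2BC4 had 1.57 and 0.991 CPM with NFATc2, and 1.75 and 1.34 CPM with NFATc2M (-0.27, SE 0.47). The groups overlapped in H2BC4 and not in H2BC11, and the interval of each fold change held 0. Of the exonic bases of H2BC4, 30.9% lie opposite a gene on the other strand, and whether the counting used strand is not stated in the sources used here. H2BC15, with 7 and 23 counts with NFATc2 and 19 and 22 with NFATc2M, had a log2 fold change of -0.53 (SE 0.60), which turned to 0.05 without NFATc2 replicate 1. H2BC18 had 12 counts in each NFATc2 library, and 19 and 12 counts with NFATc2M (-0.43, SE 0.66).

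**Figure D3:**
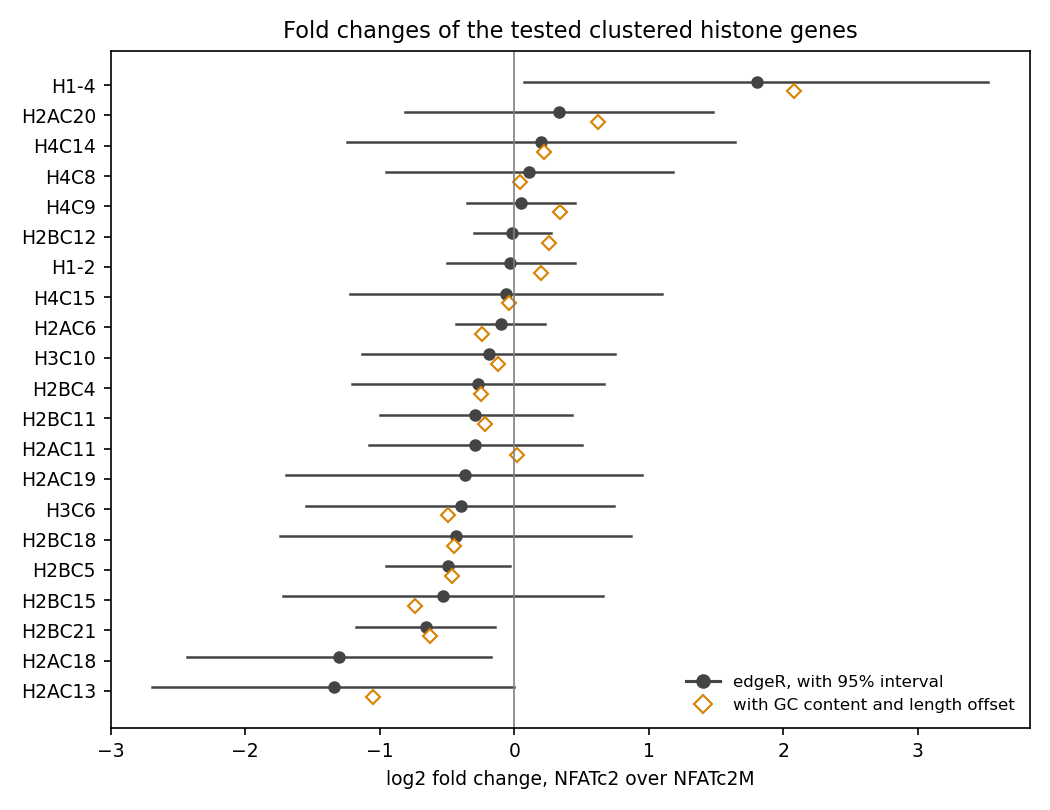
Log2 fold change of NFATc2 over NFATc2M for the 21 tested histone genes, ordered by value, with the edgeR estimate and its 95% interval and, as open diamonds for 19 genes, the estimate after the GC and length offset. The intervals of H2BC5, H2BC21 and H2AC18 lie below 0 and that of H1-4 above it, and 0 of the 21 genes passed after adjustment.

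H2A genes had summed levels of 25.4 and 22.4 CPM with NFATc2, and 28.9 and 25.2 CPM with NFATc2M, which overlapped. H2AC6 (ENSG00000180573, chromosome 6, 26124145 to 26139116, plus strand) supplied most of them, with 18.8 and 18.9 CPM with NFATc2, and 21.6 and 18.8 CPM with NFATc2M. Of its 4 libraries only NFATc2M replicate 1 stood apart from the rest. The log2 fold change was -0.10 (SE 0.17, 95% interval -0.43 to 0.23, adjusted p = 0.77 from edgeR). H2AC11 had 54 and 26 counts with NFATc2, and 48 and 46 counts with NFATc2M. The NFATc2 libraries differed more from each other than the groups did, and its log2 fold change of -0.29 (SE 0.40) was 0.02 with the offset.

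The largest negative fold changes among the 21 genes were those of a pair of H2A genes with few counts. H2AC13 had 6 and 10 counts with NFATc2, and 16 and 23 counts with NFATc2M, a log2 fold change of -1.34 (SE 0.68, adjusted p = 0.22 from edgeR). It passed the filter through the NFATc2M libraries alone. H2AC18 had 20 and 6 counts with NFATc2, and 34 and 28 counts with NFATc2M, a log2 fold change of -1.30 (SE 0.57, adjusted p = 0.14 from edgeR). In both genes the NFATc2 libraries lay below the NFATc2M libraries, and neither passed. The value of H2AC18 depended on single libraries: it was -2.46 without NFATc2 replicate 1 (adjusted p = 0.067 from edgeR) and -0.65 without NFATc2 replicate 2 (adjusted p = 0.70 from edgeR). That of H2AC13 ran from -1.70 to -1.07 with a library left out. Both have a near copy: 63.5% of the 50-base stretches of H2AC13 recur, mostly in H2AC14, and H2AC18 has a near-identical copy in H2AC19. H2AC19 had 18 and 6 counts with NFATc2, and 18 and 12 counts with NFATc2M (-0.37, SE 0.67). Reads that aligned to both H2AC18 and H2AC19 are in neither count, and what their loss does to both values was not tested. H2AC20 had 23 and 22 counts with NFATc2, and 26 and 8 counts with NFATc2M. Its log2 fold change of 0.33 (SE 0.58) rested on NFATc2M replicate 2, and without that library it was -0.29.

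H4 and H3 form the tetramer at the core of the nucleosome. H4 genes had summed levels of 13.7 ± 0.539 CPM with NFATc2 and 13.5 ± 0.708 CPM with NFATc2M (SD, n = 2), a ratio of means of 1.02. H4C9 (ENSG00000276180, chromosome 6, 27139282 to 27139678, plus strand) had 224 and 250 counts with NFATc2, and 201 and 237 counts with NFATc2M. Scaled to CPM, the NFATc2 values lay inside the range of the NFATc2M values, and the log2 fold change was 0.05 (SE 0.20, 95% interval -0.35 to 0.45, adjusted p = 0.92 from edgeR). H4C8 had 18 and 31 counts with NFATc2, and 19 and 24 counts with NFATc2M (0.11, SE 0.54). H4C14 had 10 and 13 counts with NFATc2, and 13 and 6 counts with NFATc2M (0.20, SE 0.73). H4C14 and H4C15 share 100% of their 50-base stretches, so their counts cannot be assigned to either gene with confidence. H4C5 was not tested, with 2 and 9 counts with NFATc2 and 8 counts in each NFATc2M library. The depth-scaled ratio of its pooled counts was 0.656, with an exact 95% interval of 0.275 to 1.51 that covers counting error only.

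H3 genes were nearly absent from the counts. Their summed level over 11 genes was 2.73 and 3.23 CPM with NFATc2, and 3.64 and 3.28 CPM with NFATc2M, so the groups did not overlap but the nearest libraries were closer to each other than to their own partners. H3C10, the H3 gene of highest level per length, had 25 and 33 counts with NFATc2, and 32 and 31 counts with NFATc2M. Its log2 fold change was -0.19 (SE 0.48, 95% interval -1.13 to 0.75). H3C6 was the other tested H3 gene, with 17 counts in each NFATc2 library, and 25 and 18 counts with NFATc2M (-0.40, SE 0.58).

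H1 genes encode the linker histones that bind where DNA enters and leaves the nucleosome. Their summed level was 8.05 and 6.55 CPM with NFATc2, and 6.29 and 7.44 CPM with NFATc2M, which overlapped. H1-2 (ENSG00000187837, chromosome 6, 26055740 to 26056470, minus strand) supplied nearly all of it, with 7.13 and 5.82 CPM with NFATc2, and 6.29 and 6.88 CPM with NFATc2M. The log2 fold change was -0.03 (SE 0.24, 95% interval -0.50 to 0.45, adjusted p = 0.97 from edgeR). H1-4 had 13 counts in each NFATc2 library, and 0 and 7 counts with NFATc2M. It passed the filter through the NFATc2 libraries alone, and its log2 fold change of 1.80 (SE 0.87, 95% interval 0.07 to 3.52) had an adjusted p of 0.19 from edgeR. The NFATc2M libraries decided its size: the log2 fold change was 0.83 without NFATc2M replicate 1, the library with 0 counts. Without NFATc2M replicate 2, the library with 7, it was 6.69. The NFATc2M library left in that fit had 0 counts, so a size of 6.69 was not measured. The adjusted p did not reach 0.05 in any alternative that gave one. H1-3 had 5 and 4 counts with NFATc2, and 0 and 5 counts with NFATc2M.

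Among the other genes below the filter, the pooled ratios had wide intervals. H3C15 had 2 and 10 counts with NFATc2, and 5 and 16 counts with NFATc2M, a ratio of 0.546 with an exact 95% interval of 0.245 to 1.16. All of its 50-base stretches (100%) recur, mostly in H3C14, which had 7 and 0 counts with NFATc2, and 2 and 0 counts with NFATc2M (ratio 3.34, 0.636 to 33.0), so their reads cannot be assigned to either gene with confidence. The gene H2AC15 had 2 and 8 counts with NFATc2, and 6 and 11 counts with NFATc2M, a ratio of 0.562 (0.230 to 1.30). H3C8 had 0 and 9 counts with NFATc2, and 1 and 0 counts with NFATc2M, so its counts came from NFATc2 replicate 2 almost alone. In sum the 43 genes had 3.42 and 3.45 CPM with NFATc2, and 3.07 and 3.88 CPM with NFATc2M. The NFATc2 values lay inside the range of the NFATc2M values.

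Summed over all 64 genes the level was 95.2 ± 3.76 CPM with NFATc2 and 104 ± 2.77 CPM with NFATc2M (SD, n = 2), a ratio of 0.912, and the libraries of the groups did not overlap. A sum over chosen genes was given no test. When the sum was divided by the annotated end, the 46 genes that end at the stem-loop had 57.7 and 54.0 CPM with NFATc2, and 57.7 and 55.2 CPM with NFATc2M, a ratio of 0.991. The 13 genes that extend past it had 37.5 and 37.1 CPM with NFATc2, and 45.0 and 44.4 CPM with NFATc2M, a ratio of 0.834. In the other 5 genes no stem-loop was located, and of these H2AC18 and H2AC19 were not searched. They had 2.59 and 1.38 CPM with NFATc2, and 3.64 and 2.73 CPM with NFATc2M, a ratio of 0.624. The groups did not overlap in the second class and overlapped in the first, and the difference between the classes was not tested. The second class had 810 and 861 counts with NFATc2, and 951 and 962 counts with NFATc2M. An SD of 2 libraries may understate the counting error of such sums. Much of the gap in the second class lay in H2BC5 and H2BC21. Their mean levels were 5.88 and 4.09 CPM with NFATc2, and 8.24 and 6.46 CPM with NFATc2M. Both also enter the sum of the H2B genes and that of all 64 genes, and H2BC21 enters that of chromosome 1. Among the tested genes of the extended class, 2 log2 fold changes were positive and 9 negative, with a median of -0.27, against 3 positive and 4 negative with a median of -0.02 in the class that ends at the stem-loop. The classes also differ in composition: the median GC content was 47.6% in the extended genes and 58.2% in those that end at the stem-loop. The median exonic length was 1878 and 494 bases. The GC content and length offset gave log2 fold changes for single genes, not for the sums. With it the tested extended genes had -0.74, -0.63, -0.46, -0.45, -0.25, -0.24, -0.22, -0.12, -0.04, 0.04 and 0.22. Those that end at the stem-loop had -1.05 (H2AC13), 0.02, 0.20, 0.26, 0.34, 0.62 and 2.08 (H1-4). What part GC content and length have in the contrast of the sums was not tested. By cluster, the genes of chromosome 1 had 9.81 and 7.63 CPM with NFATc2, and 12.3 and 11.9 CPM with NFATc2M (ratio 0.720), and those of chromosome 6 had 88.0 and 84.9 CPM with NFATc2, and 94.0 and 90.4 CPM with NFATc2M (ratio 0.938).

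**Figure D4:**
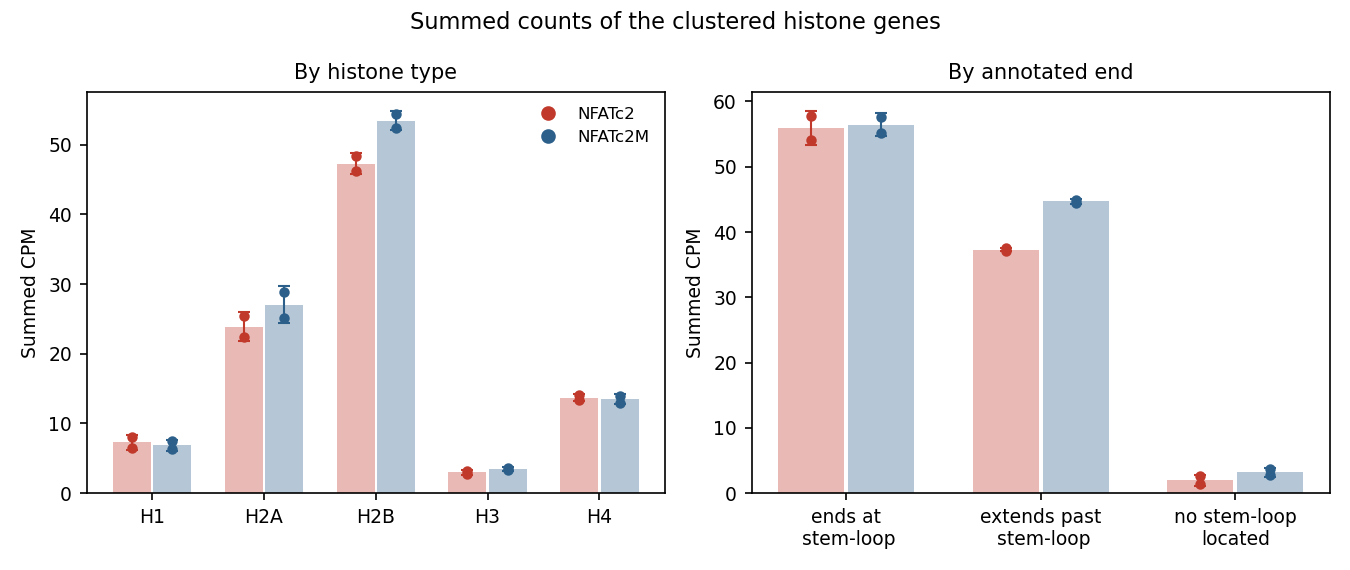
Summed CPM of the 64 histone genes by histone type (left) and by annotated end (right), with NFATc2 left of NFATc2M, bars for the mean of 2 libraries, error bars for the SD and points for the libraries. The genes that extend past the stem-loop had 37.3 ± 0.272 CPM with NFATc2 and 44.7 ± 0.354 CPM with NFATc2M, and those that end at it 55.9 ± 2.63 and 56.4 ± 1.76 CPM in the same order. The class with no stem-loop located holds 5 genes, of which H2AC18 and H2AC19 were not searched.

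The histone genes were set beside 4 lists of genes that act with them. For transcription and 3′ end processing of histone mRNA, 26 genes were tested, 3 rose with NFATc2, 0 fell and the median log2 fold change was 0.12. CPSF2, a subunit of the complex that cuts histone pre-mRNA, had 97.5 and 96.0 CPM with NFATc2, and 62.9 and 78.8 CPM with NFATc2M (0.45, SE 0.12, adjusted p = 0.0067 from edgeR). NCBP1, of the cap binding complex, had 77.0 and 89.5 CPM with NFATc2, and 57.0 and 64.5 CPM with NFATc2M (0.45, SE 0.12, adjusted p = 0.0075 from edgeR). CCNE2, a cyclin E that activates CDK2 at the entry to S phase, had 9.39 and 9.22 CPM with NFATc2, and 5.25 and 6.15 CPM with NFATc2M (0.71, SE 0.23, adjusted p = 0.034 from edgeR). In these 3 genes both NFATc2 libraries were the higher ones, but with the GC content and length offset 0 of the 26 passed. Fewer genes passed over all genes too, 599 of 17163 with the offset against 1508 of 17459 without it. The median of the 26 was then 0.15, against 0.03 over all genes. Positive values numbered 21 with the offset and 17 without it. NPAT had a log2 fold change of 0.45 with an adjusted p of 0.11, and SLBP 0.13 with an adjusted p of 0.56, so neither passed in edgeR.

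The replication-independent histone variants, most of which are made throughout the cell cycle and from polyadenylated mRNAs, had higher counts with few exceptions. H3-5 had 34 counts over the 4 libraries, and CENPA with 2275 and MACROH2A2 with 2579 had fewer than the 2800 of H2BC12. H3-3B, a gene of the H3.3 variant, had 627 and 531 CPM with NFATc2, and 596 and 581 CPM with NFATc2M, and H2AZ1, of H2A.Z, had 280 and 289 CPM with NFATc2, and 272 and 257 CPM with NFATc2M. Each of these genes alone had a higher CPM than the 64 clustered genes together, although CPM does not correct for gene length. Of 12 variants tested 0 rose and 1 fell, with a median of 0.02. The gene that fell was H2AJ, an H2A gene outside the clusters, with 50.2 and 35.5 CPM with NFATc2, and 66.5 and 54.8 CPM with NFATc2M (-0.50, SE 0.13, adjusted p = 0.010 from edgeR). With the offset the fold change of H2AJ was -0.60 but no longer passed (adjusted p = 0.16 from edgeR), and that of H2AX, the variant phosphorylated at DNA breaks, passed (0.44, adjusted p = 0.0026 from edgeR). Without NFATc2 replicate 2 H2AJ was -0.28 (adjusted p = 0.47), without NFATc2M replicate 1 it was -0.36 (adjusted p = 0.50), both from edgeR, and without NFATc2 replicate 1 it was -0.77 and passed.

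Of 24 histone chaperones and assembly factors, 3 rose and 1 fell, with a median of 0.09. ANP32E, which removes H2A.Z from nucleosomes, had 95.2 and 89.7 CPM with NFATc2, and 52.7 and 69.9 CPM with NFATc2M (0.59, SE 0.12, adjusted p = 0.00037 from edgeR). ATRX, which deposits H3.3 together with DAXX, and NAP1L1, a chaperone of H2A and H2B, had log2 fold changes of 0.45 and 0.39 (SE 0.12 and 0.10, adjusted p = 0.0065 and 0.0088 from edgeR). TONSL, a reader of newly made H4, had 54.6 and 57.2 CPM with NFATc2, and 89.6 and 70.9 CPM with NFATc2M (-0.52, SE 0.12, adjusted p = 0.0022 from edgeR). Under the offset 0 of the 24 passed, beside 599 of 17163 over all genes.

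Of 33 genes of S phase and DNA replication, 3 rose and 0 fell, with a median of 0.13 and 25 positive values. RRM1 and RRM2, the subunits of ribonucleotide reductase, had log2 fold changes of 0.41 (SE 0.11, adjusted p = 0.0081) and 0.33 (SE 0.11, adjusted p = 0.032) from edgeR. MCM6, of the replicative helicase, had 137 and 140 CPM with NFATc2, and 106 and 112 CPM with NFATc2M (0.34, SE 0.11, adjusted p = 0.034 from edgeR). With the offset 4 of the 33 rose, RRM1, RRM2 and also E2F1 (0.45, adjusted p = 0.0077) and CDT1 (0.33, adjusted p = 0.046), while MCM6 no longer passed (0.20, adjusted p = 0.18), all from edgeR. The shares of these 4 lists that passed, 11.5%, 8.33%, 16.7% and 9.09% in the order given, stand beside 8.64% over all genes tested. The numbers that passed changed with the library left out, in the lists and over all genes tested alike. Each such fit leaves 1 group with a single library, so its calls are not compared between lists.

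**Figure D5:**
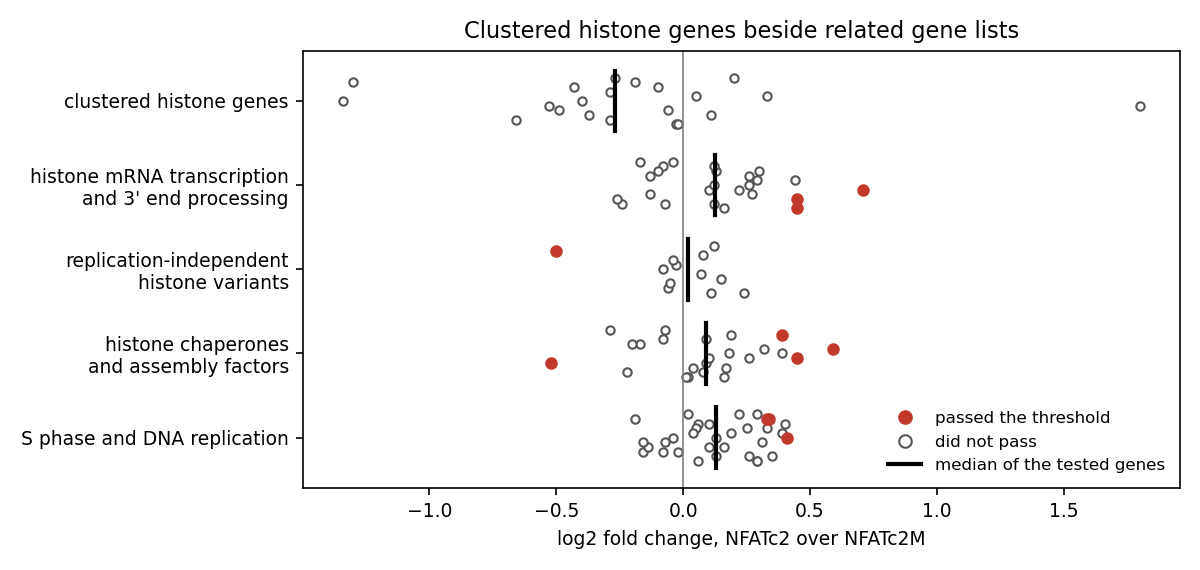
Log2 fold changes of NFATc2 over NFATc2M for the tested clustered histone genes and 4 related lists, with filled points for genes that passed the threshold and a black bar for the median. The medians were -0.27 for the clustered histone genes and 0.12, 0.02, 0.09 and 0.13 for the lists from top to bottom.

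Other RNAs that cells make without a poly(A) tail were nearly absent from the counts. Of 24 such genes listed (small nuclear, nucleolar, vault, Y and signal recognition particle RNAs, and the RNAs of RNase P, RNase MRP and telomerase among them), 23 were found and 4 had a count. SNORA73B, a small nucleolar RNA, had the most, 7 and 26 counts with NFATc2, and 18 and 16 counts with NFATc2M, and it was the only one tested (-0.13, SE 0.62). RNU4ATAC, of the minor spliceosome, had 4 and 0 counts with NFATc2, and 1 count in each NFATc2M library. By comparison 53 of the 64 clustered histone genes had a count, and H2BC12 had up to 733 in a library. Several of these RNAs are shorter than sequenced fragments usually are, and the part of length in their low counts was not tested.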

How the data were processed

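RNA-seq of 4 A549 samples was used, 2 transfected with NFATc2 and 2 with NFATc2M, grouped by the sample labels. The authors used HISAT2 for alignment to GRCh38, SAMtools 1.18 for sorting and HTSeq 0.11.2 for counting on the Ensembl gene annotation, and deposited raw whole-number counts. Sample names in the column headers gave the libraries. A second sheet repeats the counts in 4 value columns that lack sample names and have the groups the other way round. It was not used, so every direction rests on the column names. Gene identifiers, coordinates, exonic length and GC content were matched to GENCODE 44 on GRCh38. HTSeq's 5 summary rows were left out.

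Tests were run with edgeR 4.0.16 in R 4.3.3: filterByExpr on the groups (minimum count 10), TMM scaling, robust glmQLFit with 2 residual degrees of freedom and glmQLFTest, with Benjamini-Hochberg adjustment over 17459 genes. Alternatives were DESeq2 1.42.0, limma voom (limma 3.58.1), other scalings and filters, the replicate number as a block, a GC content and length offset (splines with 5 degrees of freedom), the other quasi-likelihood setting and each library left out in turn. The histone genes and lists were chosen with earlier results of these data known. Named genes are the 12 histone genes highest in CPM and in CPM per kb, every tested H1 gene, the 4 with the largest fold changes in each direction, and, from each list, at most 4 genes that passed. H3C6, H2AC19, H2BC18, H4C15, genes below the filter other than H4C5, and E2F1, CDT1, H2AX, KRT18, AKR1C1 and other list genes outside this rule were named after their values were seen. The search after the stop codon was chosen after seeing the data; the planned search, of the last 150 bases of a gene and 50 beyond, found a stem-loop in 46 of 62 histone genes (74.2%) and in 0.479% of protein-coding genes. Intervals of pooled ratios are exact, at 95%.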

Additional observations from a re-analysis of the deposited data

How the results depend on the processing

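The count of clustered histone genes past the threshold was 0 in every alternative run. The ratio of their summed levels ran from 0.887 to 0.938 with a library left out. For the 63 genes other than H2BC12, the gene of highest count, the ratio was 0.878 over all 4 libraries. Of the named histone genes, 9 changed sign in some setting. With the GC content and length offset, H2BC12 was 0.26, H1-2 0.20, H2AC11 0.02 and SNORA73B 0.08. With a library left out, log2 fold changes ran from -0.12 to 0.09 in H2BC12, -0.06 to 0.16 in H4C9, -0.18 to 0.11 in H1-2, -0.96 to 0.18 in H2AC11, -0.29 to 1.42 in H2AC20, -0.63 to 0.02 in H2BC4, -0.27 to 0.41 in H4C8, -1.55 to 0.05 in H2BC15, -0.26 to 0.86 in H4C14, -1.29 to 0.50 in SNORA73B and -0.19 to 0.01 in NFATC2. None of these values passed the threshold, and the cause of the changes was not tested. Genes past the threshold in the list of histone mRNA processing numbered 0 with the offset and 0 to 5 with a library left out, variants 0 to 2 with a library left out, chaperones 0 with the offset and 0 to 5 with a library left out, and S phase genes 1 with upper quartile scaling, 1 with library size scaling and 0 to 7 with a library left out. Over all genes, 384 were higher and 215 lower with the offset, 662 and 864 with upper quartile scaling, and 556 and 707 with library size scaling, against 856 and 652. With a library left out, 73 to 1963 passed. Same-numbered libraries hardly deviated together (r = 0.0408 over 17459 genes, and 0.0836 over 12169 genes with a mean of at least 100 counts). Whether they were prepared as pairs is not stated in the labels. With the replicate block, 0 histone genes, 6 S phase genes and 1759 genes in all passed, against 0, 3 and 1508 without it. With the block and the offset together, 0 processing genes, 3 variants, 1 chaperone and 5 S phase genes passed, H2BC12 was 0.26 and H1-2 0.20, and H2AJ, which lost its call with the offset alone, was -0.60 and passed (adjusted p = 0.00011 from edgeR). Where a library is left out, the spread comes from the other group alone.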

Other observations

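Histone genes outside the naming rule were looked at after their values had been seen. H2AW, a replication-dependent H2A gene on another part of chromosome 1, had 119 and 114 counts with NFATc2, and 175 and 155 counts with NFATc2M, without overlap (log2 fold change -0.57, SE 0.24, adjusted p = 0.13 from edgeR, not passed). H2BC20P, annotated as a transcribed pseudogene of the chromosome 1 cluster, had 90 and 137 counts with NFATc2, and 121 and 181 counts with NFATc2M (-0.48, SE 0.25, adjusted p = 0.23 from edgeR), and the groups overlapped. H2BC19P, the neighbouring pseudogene, had 26 and 14 counts with NFATc2, and 18 counts in each NFATc2M library (0.10, SE 0.58). H4-16, an H4 gene on chromosome 12, had 9 and 15 counts with NFATc2, and 10 and 28 counts with NFATc2M (-0.72, SE 0.64). H2BU1, H2BS1 and H3-4 had 36, 16 and 1 counts over the 4 libraries and were not tested.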
